A study of Mus musculus with 36 samples.

Results

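Ovalbumin (OVA) challenge was compared with saline in the lungs of mast-cell-deficient KitWsh mice, homozygous for the sash allele of Kit. The comparison took the 4 arrays titled KitWsh OVA with no engraftment and the 3 arrays titled KitWsh PBS with no engraftment, 7 of the 36 arrays of the series. The other arrays were wild-type (WT) lungs and KitWsh lungs given mast cells, and only the 8 WT arrays are used below. Both KitWsh groups came from female, age-matched mice of the C57BL/6 background, to which the allele had been backcrossed for more than 10 generations. OVA mice were injected intraperitoneally 3 times, on days 1, 4 and 7, with 50 µg OVA dissolved in 0.1 ml of phosphate-buffered saline (PBS). Starting on day 12 they received 20 µg OVA in 30 µl PBS intranasally every week for 9 weeks. PBS mice received PBS alone on the same schedule. The sash mutation is a rearrangement upstream of Kit that is carried by every cell, so the mice differ from WT in more than mast cells, and KitWsh OVA and KitWsh PBS share it. The WT groups were C57BL/6 mice given OVA (4 arrays) or PBS (4 arrays). Each array held total RNA of whole lung, 1 array per sample. Whether a group's samples were separate animals is not stated in the labels, so the p-values cover the spread among these samples only, which may be technical.

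In allergic airway disease, type 2 cytokines act through the IL-4 and IL-13 receptors and the transcription factor STAT6. In airway epithelium this turns secretory cells into goblet cells that make the gel-forming mucins, and in macrophages it induces chitinase-like proteins, resistin-like molecules and arginase. Mast cells are resident granulated cells that carry the high-affinity IgE receptor, release proteases, amines and lipid mediators when antigen binds their IgE, and need the receptor tyrosine kinase Kit to survive.

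The promoters of 3 genes called higher in OVA lungs are shown because a candidate STAT sequence falls in each of them. The windows are the 250 bases before the gene start from RefSeq on GRCm38.p6, 5′ to 3′ on the gene's strand. Searched were TTCNNNGAA and TTCNNNNGAA, the second being the spacing that STAT6 prefers, and each reads the same on both strands. The capitals mark the match. Chil4, a chitinase-like protein, has its window at chr3:106219480-106219729 on the minus strand. Chil3, a closely related macrophage protein, has its window at chr3:106167565-106167814 on the minus strand. Retnla, a resistin-like molecule of alternatively activated macrophages and airway epithelium, has its window at chr16:48842359-48842608 on the plus strand.
Chil4: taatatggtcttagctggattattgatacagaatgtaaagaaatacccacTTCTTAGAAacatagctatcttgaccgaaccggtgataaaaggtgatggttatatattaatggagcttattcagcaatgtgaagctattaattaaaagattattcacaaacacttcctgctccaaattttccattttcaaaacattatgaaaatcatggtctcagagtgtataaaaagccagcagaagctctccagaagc
Chil3: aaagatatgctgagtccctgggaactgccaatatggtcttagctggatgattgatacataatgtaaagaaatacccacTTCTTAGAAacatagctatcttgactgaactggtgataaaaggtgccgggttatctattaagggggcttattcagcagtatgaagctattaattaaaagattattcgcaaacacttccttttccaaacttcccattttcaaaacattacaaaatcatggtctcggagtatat
Retnla: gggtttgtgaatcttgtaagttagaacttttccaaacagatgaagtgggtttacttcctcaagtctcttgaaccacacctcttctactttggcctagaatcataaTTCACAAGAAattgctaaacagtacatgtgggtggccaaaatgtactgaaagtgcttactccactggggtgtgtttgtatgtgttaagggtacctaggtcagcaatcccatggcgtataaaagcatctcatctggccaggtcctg
The match began 200 bases before the start of Chil4, 172 before that of Chil3 and 145 before that of Retnla. TTCNNNGAA was found in 2306 of 32851 such windows (7.02%) and TTCNNNNGAA in 1923 (5.85%). Of 16 genes searched, which were the 15 highest called and Chil3, 12 had a window, and Tlr1 and Bpifb1 also held TTCNNNGAA, each in 1 of 2 windows. A match is a stretch of letters and was not tested for binding.

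Values are log2 intensities, and a difference of 1 is 2-fold. The lowest possible value on these arrays was 2.19, and probe sets near it have no order. All 7 KitWsh arrays had Xist of 12.5 to 13.3 and Y-linked transcripts at 2.19 to 2.21, as their female label says. Kit was 5.24 to 6.74 in the KitWsh arrays and 9.86 to 10.28 in WT PBS. WT OVA array 4 went against its label: its Kit was 6.90 where the other WT OVA arrays had 10.61 to 10.97, its Xist was 10.69, and the mean of 3 Y-linked transcripts was 7.28 where the other WT arrays had 2.19 to 2.25. The counts for WT, the WT differences and the called differences between WT and KitWsh are given with and without it. The difference between 3′ and 5′ beta-actin control probes, which grows as RNA breaks down, was 1.74 ± 0.61 in KitWsh OVA (SD, n = 4) and 2.07 ± 0.38 in KitWsh PBS (n = 3), an exact two-sided permutation p of 0.457, where the smallest p that 35 splits of 4 and 3 arrays allow is 0.0571. OVA array 1 stood apart from the other OVA arrays in it, at 2.62 against 1.29 to 1.70, and in the same measure of Gapdh, at 2.30 against 0.37 to 0.77, while PBS array 2 had 2.48 and 1.93. The part of RNA quality in the results was not tested. KitWsh OVA arrays 2 and 4 were the most alike pair (Pearson r of 0.9927 across genes). KitWsh OVA array 1 had a median r of 0.970 with the other OVA arrays and 0.966 with the PBS arrays, and KitWsh OVA array 3 had 0.9755 and 0.9735.

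Of 11026 genes tested, 866 (7.85%) were called at an adjusted p under 0.05 by limma with Benjamini-Hochberg adjustment: 325 higher in OVA (2.95%) and 541 lower (4.91%). The higher genes had the larger differences, with 158 higher and 84 lower by 2-fold or more and 24 higher and 0 lower by 4-fold or more. The 2 groups did not overlap in 817 genes with OVA higher (7.41%) and in 2014 with OVA lower (18.3%), and in 183 (1.66%) and 89 (0.807%) of these the difference was also 2-fold or more. Over all tested genes 29.7% had an unadjusted p under 0.05, 37.4% had a higher and 62.6% a lower mean in OVA. The median difference of all tested genes was -0.10, and after each array was centred on its median 659 genes were called, of which 58% were higher where 37.5% had been. By quantile normalisation 697 were called, 46.1% of them higher. The number of calls depended on single arrays. It fell to 5 without KitWsh OVA array 2, 19 without OVA array 4, 6 without PBS array 1, 77 without PBS array 2 and 29 without PBS array 3, and it rose to 2163 without OVA array 1 and 1459 without OVA array 3. The counts of list members in these 7 fits are given beside them. Among the named genes, Chil4, Muc5ac, Chil3 and Ear3 were called in all 7 of them and Rasl11a in 6.

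Goblet cell and mucus genes had the highest median difference of the lists. Of 13 tested members of 22 listed, 10 rose in OVA lungs, where 2.95% of all tested genes were called higher. No member was called lower and all 13 means were higher, where 37.4% of all tested genes had a higher mean. The median difference was 2.72, against -0.10 over all tested genes. The count was 1 without OVA array 2, 2 without OVA array 4, 1 without PBS array 1, 5 without PBS array 2, 8 without PBS array 3, 10 without OVA array 1 and 12 without OVA array 3. The median stayed between 2.48 and 3.02 in these fits. Muc5ac, Agr2, Fer1l6 and Scin had every PBS array under log2 5, the limit for testing, and passed it through their OVA arrays alone. Their higher direction was thus favoured in advance, and the fitted differences that they add to the median are no measured sizes. Listed genes that did not pass the limit are not in these counts.

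Clca1, a secreted protease that cleaves mucus and is a standard marker of IL-13-treated airway epithelium, was at 13.25, 14.02, 13.05 and 14.21 in OVA arrays 1 to 4 and at 8.03, 3.59 and 9.63 in PBS arrays 1 to 3. All OVA arrays lay above all PBS arrays, and the OVA arrays were close together while the PBS arrays spread widely. The difference was 6.55 ± 1.14 (SE, adjusted p = 0.026). Muc5ac, the gel-forming mucin made by goblet cells in allergic airways, was at 7.17, 7.26, 5.96 and 7.40 in OVA and at 3.52, 2.86 and 3.32 in PBS. All 3 PBS arrays were under log2 5, the limit used for a measurable level, so the gene was at least 3.86-fold higher (3.72 ± 0.33, adjusted p = 0.00346). Muc5b, the mucin that airways make constitutively, was at 10.16, 10.46, 9.72 and 10.75 in OVA and at 7.92, 7.20 and 8.78 in PBS, with no overlap (2.31 ± 0.36, adjusted p = 0.0184).

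Fcgbp, a mucus protein that links to mucins, rose by 2.72 ± 0.31 (adjusted p = 0.00815). Its OVA values of 8.72, 9.14, 8.23 and 9.67 stood clear of its PBS values of 6.21, 5.88 and 6.57. Agr2, an endoplasmic reticulum isomerase needed for mucin folding, was at 6.84, 7.04, 5.23 and 6.89 in OVA and at 3.33, 3.21 and 4.55 in PBS, at least 2.83-fold higher (adjusted p = 0.0239). Tff2, a trefoil peptide of mucous epithelium, rose by 1.98 ± 0.35, Bpifb1, a secreted airway lipid-binding protein, by 2.77 ± 0.51, and Galnt6, which starts mucin-type O-glycans, by 0.84 ± 0.21. Fer1l6 and Scin, the latter an actin-severing protein, were at least 3.09-fold and 1.43-fold higher. Slc26a4, the anion exchanger pendrin, was at 8.31, 8.33 and 8.10 in OVA arrays 1, 2 and 4 but at 4.60 in OVA array 3, inside the PBS values of 4.63, 5.08 and 4.55, and was not called (2.59 ± 0.80, adjusted p = 0.0753). OVA array 3 was also the lowest OVA array for Clca1, Muc5ac, Muc5b, Agr2 and Fcgbp, and it was above every PBS array for each of these.

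**Figure D1:**
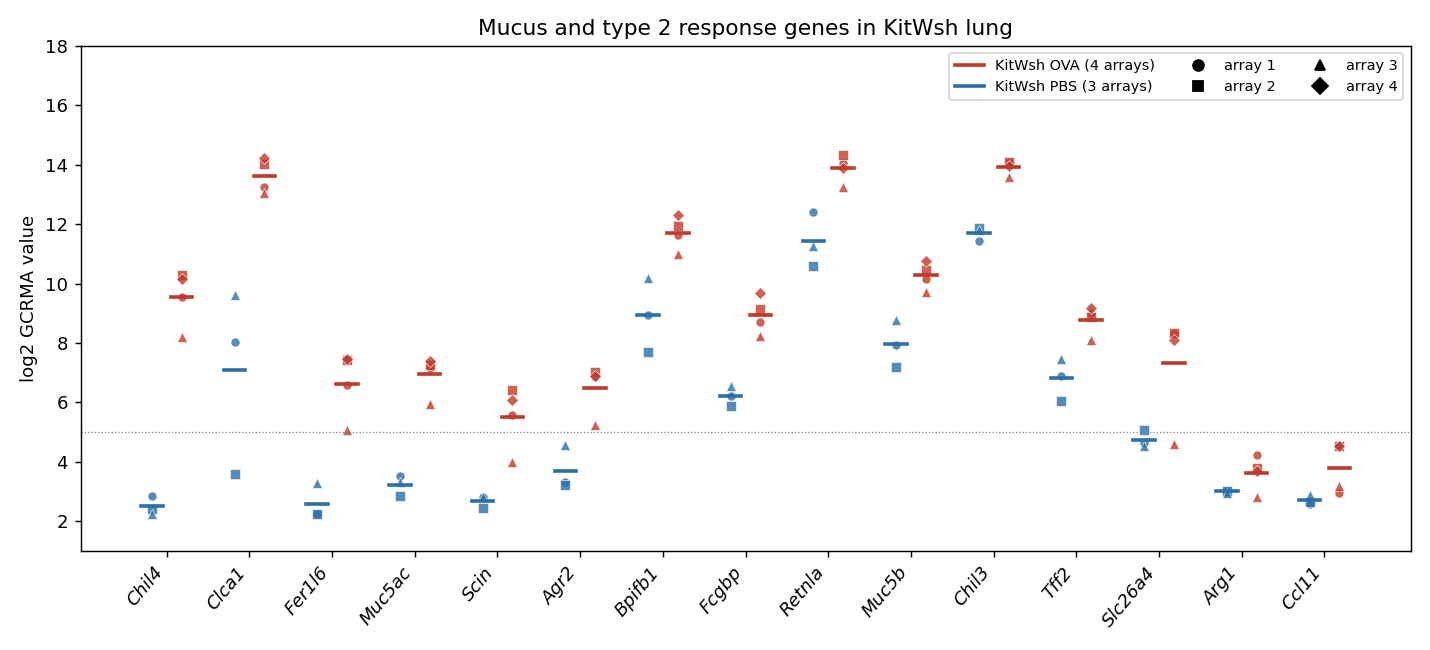
Log2 intensity of mucus and type 2 response genes in each KitWsh array, with points for the 4 OVA and 3 PBS arrays, bars for group means and a dotted line at the limit for testing. Chil4 lies between 8.20 and 10.28 in OVA and between 2.25 and 2.85 in PBS, and Slc26a4 shows OVA array 3 among the PBS arrays.

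Of 16 tested genes that respond to IL-4 and IL-13, 7 were called higher and none lower, with a median of 0.79. Over all tested genes 2.95% were called higher. The count was 2 to 3 without OVA array 2, OVA array 4 or any 1 PBS array, 7 without OVA array 1 and 9 without OVA array 3. Chil4 had the highest fitted difference of all called genes, but its PBS arrays were all under log2 5, so its place relative to Clca1 is not measured. It was at 9.55, 10.28, 8.20 and 10.15 in OVA and at 2.85, 2.41 and 2.25 in PBS, at least 23.3-fold higher (adjusted p = 0.000493). Chil3 was at 14.07, 14.09, 13.59 and 13.96 in OVA and at 11.42, 11.87 and 11.81 in PBS, with no overlap (2.23 ± 0.17, adjusted p = 0.00169). The probe set of Chil4 was near the lowest value in PBS lungs where that of Chil3 read over 11, so it did not read Chil3 transcripts to a measurable level. Retnla was at 14.04, 14.32, 13.25 and 13.90 in OVA and at 12.41, 10.59 and 11.28 in PBS, again with no overlap (2.45 ± 0.39, adjusted p = 0.0219). Chia1, the acidic chitinase of airway epithelium, rose by 0.86 ± 0.13, and the macrophage genes Mrc1, Clec7a and Pparg rose by 0.97 ± 0.18, 1.44 ± 0.31 and 0.92 ± 0.20.

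Arg1, the arginase of alternatively activated macrophages, stayed low. It was at 4.23, 3.81, 2.82 and 3.69 in OVA and at 3.03, 3.03 and 2.94 in PBS, under the limit for testing in KitWsh lungs, with OVA array 3 below the PBS arrays. The eosinophil chemokine Ccl11 was at 2.94, 4.55, 3.19 and 4.54 in OVA and at 2.58, 2.64 and 2.89 in PBS, with all OVA arrays above the PBS arrays but all under log2 5. Il4, Il5, Il9, Il13 and Il25 were at the lowest values in both groups. Among the cytokines of epithelium, Il33 was at 12.03, 11.92, 11.18 and 11.99 in OVA and at 10.83, 10.94 and 10.83 in PBS and rose by 0.91 ± 0.21 (adjusted p = 0.0388), while Tslp differed by -0.68 ± 0.26 (adjusted p = 0.125) with overlapping groups. Among receptor chains, Csf2ra and Csf2rb of the GM-CSF receptor rose by 2.40 ± 0.46 and 1.10 ± 0.23, and Csf2rb2 rose by 1.19 ± 0.31. They were the called members among 10 tested receptors and transcription factors of the type 2 response. Over all tested genes 2.95% were called higher. The count of these members was 0 without OVA array 2, OVA array 4 or any 1 PBS array, 5 without OVA array 1 and 4 without OVA array 3. Csf2rb and Csf2rb2 are near-identical paralogs whose probe sets may share signal. A second Csf2ra probe set averaged 4.025 in OVA and 3.79 in PBS, both under log2 5. Ltc4s, which makes leukotriene C4, rose by 1.40 ± 0.29 and was the called member of 12 tested genes of leukotriene and prostaglandin synthesis and receptors, where 3 were called without OVA array 3, 1 without OVA array 1 or PBS array 2 and 0 without any other array. Il33 was called without OVA array 1 or OVA array 3 and in no other of these fits, and Csf2rb2 was not called after quantile normalisation.

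Of 18 tested chemokines, 3 rose and 1 fell, with a median of 0.80. Of all tested genes 2.95% were called higher and 4.91% lower. Ccl6, a macrophage chemokine, was at 13.11, 13.39, 12.36 and 13.20 in OVA and at 11.11, 11.51 and 10.63 in PBS (1.93 ± 0.27, adjusted p = 0.0161). Ccl8, a ligand of CCR8 in mice, was at 10.51, 10.83, 8.65 and 11.01 in OVA and at 8.11, 6.55 and 8.23 in PBS (2.62 ± 0.59, adjusted p = 0.0375). Neither gene overlapped between groups, and Ccl8 in OVA array 3 was only just above the PBS arrays. Ccl5, which draws T cells and eosinophils, rose by 1.55 ± 0.27. Cxcl12, a stromal chemokine that retains CXCR4-bearing cells, fell by 0.60 (SE 0.15), and was not called after quantile normalisation (adjusted p = 0.0534) or centring (0.0668). Cxcl9 and Cxcl10, the interferon-gamma-inducible ligands of CXCR3, differed by 2.90 ± 0.78 and 2.03 ± 0.55 and missed the threshold (adjusted p = 0.053 for each), with their OVA array 3 among the PBS arrays. The count of called chemokines was 0 or 1 without OVA array 2, OVA array 4 or any 1 PBS array, 7 without OVA array 1 and 12 without OVA array 3. Of the interferon response list, 3 of 21 rose, Iigp1, Irgm1 and Tap1, with a median of 0.51, and the count was 0 without OVA array 2, OVA array 4 or any 1 PBS array, 7 without OVA array 1 and 11 without OVA array 3. Of the acute phase list, Lcn2, an iron-sequestering protein, rose by 1.76 ± 0.30 and the haemoglobin-binding Hp fell by 0.61 (SE 0.15) among 12 tested. Both were called without OVA array 1 or OVA array 3, neither without any other array, and Hp was not called after centring (adjusted p = 0.0691). Lrg1 and Fgg, also acute phase proteins, were among the 15 highest genes, Lrg1 with a difference of 2.80 ± 0.46. For Fgg the PBS mean was 4.34 (SD 0.47), under log2 5, so its fitted 2.56 ± 0.39 is no measured size.

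Macrophage and myeloid genes were higher in OVA lungs across several lists. In whole-lung RNA, more cells of a type and more RNA per cell cannot be told apart, nor can fewer cells and less RNA per cell. Of 15 tested alveolar macrophage genes, 9 rose, none was called lower and all 15 means were higher (median 0.92). Of 21 monocyte and recruited macrophage genes, 9 rose (median 0.97), as did 7 of 14 paired and lectin receptors of myeloid cells (median 0.96), 3 of 7 adaptors and signalling proteins of those receptors (median 1.07) and 4 of 12 cathepsins (median 0.52). None of these lists had a member called lower, and some genes stand in 2 of them. Of all tested genes 2.95% were called higher, 4.91% were called lower, and 37.4% had a higher mean. Without OVA array 2, OVA array 4, PBS array 1 or PBS array 3 the 5 lists had 0 to 2 called members each, and without PBS array 2 they had 0 to 4. Without OVA array 1 they had 9, 11, 7, 5 and 6, and without OVA array 3 they had 10, 13, 11, 5 and 4.

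Atp6v0d2, a proton pump subunit abundant in alveolar macrophages and osteoclasts, was at 8.44, 8.37, 7.65 and 8.37 in OVA and at 6.36, 6.51 and 6.29 in PBS. The PBS arrays agreed closely and lay below every OVA array (1.82 ± 0.20, adjusted p = 0.00815). Siglecf, a sialic acid receptor of alveolar macrophages and eosinophils, was at 6.80, 6.92, 6.31 and 7.14 in OVA and at 5.51, 5.94 and 5.04 in PBS (1.30 ± 0.25, adjusted p = 0.0266). Ear3, an eosinophil-associated ribonuclease also made by alveolar macrophages, was at 8.47, 8.90, 8.69 and 9.04 in OVA and at 6.59, 6.74 and 5.95 in PBS, without overlap (2.35 ± 0.21, adjusted p = 0.00346). The Ear genes are close paralogs, and the probe set may read others of them. Epx, Prg3 and Ccr3, which define eosinophils, were at the lowest values in every KitWsh group mean, so Siglecf was the called member of 2 tested genes of the eosinophil list, a call kept without OVA array 1, OVA array 3 or PBS array 2 and lost without any other array.

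Clec4a3, a C-type lectin receptor, was at 8.56, 9.23, 9.02 and 9.30 in OVA and at 7.35, 7.42 and 7.51 in PBS (1.60 ± 0.18, adjusted p = 0.00815). Cd200r4, an activating member of the CD200 receptor family, was at 8.65, 7.91, 7.28 and 7.89 in OVA and at 5.35, 6.09 and 5.38 in PBS (2.33 ± 0.31, adjusted p = 0.0146). The groups did not overlap for either. Tyrobp, the adaptor DAP12 that carries the signal of such receptors, rose by 1.34 ± 0.22, and Sirpb1a by 1.50 ± 0.28. The lysosomal macrophage protein Cd68 rose by 1.93 ± 0.33, Gpnmb, a glycoprotein of lipid-laden macrophages, by 1.43 ± 0.26, and the complement components C1qb and C1qc by 1.77 ± 0.37 and 1.52 ± 0.38. Among the cathepsins, Ctse rose by 1.47 ± 0.19, Ctsk by 1.61 ± 0.32, Ctss by 1.10 ± 0.20 and Ctsd by 0.71 ± 0.18, the last not called after quantile normalisation. Tlr1, a receptor for bacterial lipopeptides, was called (adjusted p = 0.0382) although OVA array 3 at 4.83 lay below PBS array 2 at 4.95. Its PBS arrays were under log2 5, so the fitted 3.14 ± 0.71 is no measured size. Of 8 tested neutrophil genes limma called none, 1 had an unadjusted p under 0.05, and the median was 0.37. Without OVA array 3, 1 of them was called higher, and none was called without any other array.

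**Figure D2:**
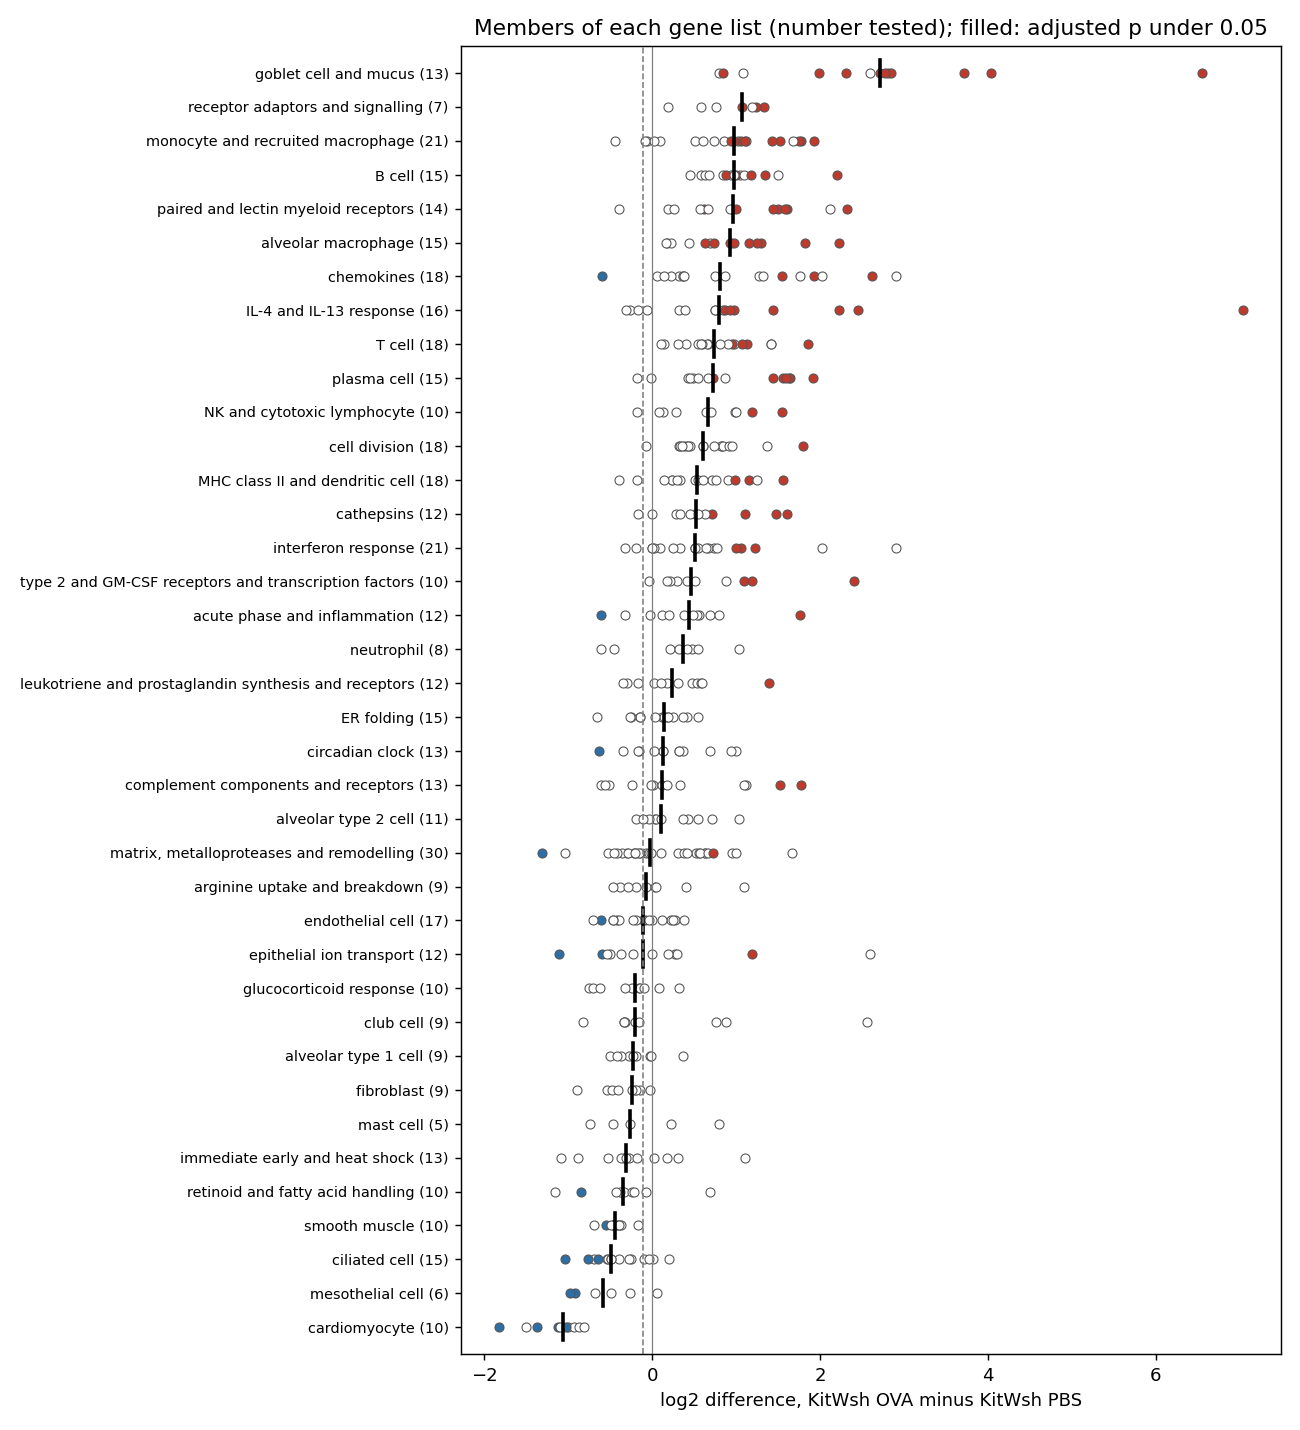
Log2 difference between KitWsh OVA and PBS of each tested member of the gene lists, one row per list, with called members filled, the list median as a bar and the median of all tested genes as a dashed line. The goblet cell and mucus list has the highest median, the medians of the macrophage, B cell, plasma cell and T cell lists lie to the right of the median of all tested genes, and those of the cardiomyocyte and ciliated cell lists lie to its left.

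Lymphocyte genes were also higher. Of 15 tested B cell genes 5 rose (median 0.97, all means higher), of 15 plasma cell genes 7 rose (median 0.72), of 18 T cell genes 4 rose (median 0.74, all means higher) and of 10 NK and cytotoxic lymphocyte genes 2 rose (median 0.67). None was called lower. Over all tested genes 2.95% were called higher, 4.91% were called lower, and 37.4% had a higher mean. Without OVA array 2, OVA array 4 or any 1 PBS array no member of these 4 lists was called. Without OVA array 3 the counts were 12, 12, 13 and 6, and without OVA array 1 they were 8, 8, 5 and 2.

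Cd79a, the signalling chain of the B cell receptor, was at 8.91, 10.28, 9.17 and 10.71 in OVA and at 7.42, 7.92 and 7.35 in PBS (2.20 ± 0.41, adjusted p = 0.0265). OVA arrays 2 and 4 stood over 1 unit above OVA arrays 1 and 3, and all 4 were above PBS. Mzb1, a chaperone of antibody-secreting cells, was at 10.47, 11.08, 9.94 and 11.11 in OVA and at 9.01, 8.14 and 9.06 in PBS (1.91 ± 0.32, adjusted p = 0.0243). Pou2af1, a B cell coactivator, rose by 1.64 ± 0.23, Derl3 by 1.43 ± 0.24 and Irf4, which drives plasma cell differentiation, by 1.55 ± 0.27. Jchain, which joins IgA and IgM polymers, was high in both groups and rose by 0.72 ± 0.17, a call lost after quantile normalisation. Of 3 tested immunoglobulin constant region genes none was called, 2 had a higher and 1 a lower mean, and the median was 0.28. The one with the lower mean, Ighg3, was at 9.16, 8.75, 7.69 and 8.81 in OVA and at 11.41, 9.20 and 8.98 in PBS. Cd5, of T and some B cells, was at 5.31, 6.36, 5.51 and 6.33 in OVA and at 4.21, 4.09 and 3.78 in PBS, at least 1.84-fold higher (adjusted p = 0.0176). Cd8a rose by 1.13 ± 0.21, Cd247 by 0.95 ± 0.22 and Cd28 by 1.07 ± 0.28. Of 18 cell division genes Ube2c alone was called, where 2.95% of all tested genes were called higher. Ube2c was at 5.94, 7.51, 6.05 and 7.77 in OVA and at 5.06, 4.89 and 5.13 in PBS (1.79 ± 0.43, adjusted p = 0.0428), again with OVA arrays 2 and 4 highest. The list had 10 called members without OVA array 3, 1 without OVA array 1 and 0 without any other array.

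The genes called lower had smaller differences. Of 10 tested cardiomyocyte genes 4 fell, Sln, Myl7, Actc1 and Myl4, where 4.91% of all tested genes were called lower. All 10 means were lower, where 62.6% of all tested genes had a lower mean, and the median was -1.06. The count was 0 without OVA array 2, OVA array 4, PBS array 1 or PBS array 3, 1 without PBS array 2, 3 without OVA array 3 and 8 without OVA array 1. Sln, the sarcolipin of atrial muscle, was at 8.91, 7.44, 7.38 and 7.62 in OVA and at 9.74, 9.09 and 10.18 in PBS and had the lowest difference of all called genes (-1.83 ± 0.38, adjusted p = 0.0335). Myl7, the atrial light chain, was at 10.09, 8.89, 9.00 and 9.38 in OVA and at 10.73, 10.24 and 11.16 in PBS (-1.37 ± 0.31). Actc1, cardiac actin, was at 10.47, 10.39, 10.64 and 10.63 in OVA and at 11.60, 10.98 and 12.11 in PBS (-1.03 ± 0.23). OVA array 1 was the highest OVA array for Sln and Myl7, and PBS array 3 was the highest PBS array for Sln, Myl7 and Actc1. Myl4 differed by -1.12 and was called in 1 of the 7 fits that left out 1 array. It was not called after quantile normalisation (adjusted p = 0.0556) or centring (0.0578). The mean of the 10 genes was 8.64, 7.58, 7.45 and 7.73 in OVA arrays 1 to 4 and 8.83, 8.44 and 9.76 in PBS arrays 1 to 3. How much heart or pulmonary vein muscle each lung sample held was not tested. Csrp3, Myoz2, Mb and Tcap, also of striated muscle, were with Sln and Myl7 among the 15 lowest genes, with differences from -1.71 to -1.33, and Mb was not called after quantile normalisation or centring.

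Other genes fell more evenly. Rasl11a, a small GTPase gene, was at 5.54, 5.64, 5.88 and 5.70 in OVA and at 7.00, 7.08 and 7.67 in PBS (-1.56 ± 0.18, adjusted p = 0.00815). The 4 OVA arrays were close together and lay over 1 unit below PBS. Mmp3, the metalloprotease stromelysin, was at 7.92, 7.51, 7.80 and 7.43 in OVA and at 9.05, 9.06 and 8.81 in PBS (-1.31 ± 0.16, adjusted p = 0.0103), the lower call among 30 tested matrix and remodelling genes. Mmp3 lost its call without OVA array 2 or PBS array 1, and the list had 6 higher and 1 lower call without OVA array 1 and 4 and 2 without OVA array 3. Pon1, a lipoprotein-associated esterase of club cells and liver, fell by 1.46 (SE 0.32), Pgr, the progesterone receptor, by 1.39 (SE 0.25), and Tubb1, the tubulin of platelets, by 1.39 (SE 0.28). Dcdc2a, Sowahb, Gdpd2, Olfml2b and Atp13a4 complete the 15 lowest, with differences from -1.72 to -1.33. The mesothelial genes Muc16 and Upk1b fell, 2 of 6 tested: Muc16 was at 6.06, 6.22, 6.00 and 6.04 in OVA and at 7.08, 6.68 and 7.41 in PBS (-0.98 ± 0.18, adjusted p = 0.0262). Of 15 ciliated cell genes 3 fell, Lrrc23, Dnaic1 and Rsph1, by 0.65 to 1.04, where 4.91% of all tested genes were called lower. The list median was -0.50. Both counts were 0 without OVA array 2, OVA array 4, PBS array 1 or PBS array 3 and 1 without PBS array 2. They were 2 and 4 without OVA array 1 and 2 and 2 without OVA array 3, and none of the 3 ciliated cell genes was called after quantile normalisation or centring.

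Of 10 smooth muscle genes 1 fell, Synpo2, where 4.91% of all tested genes were called lower and 2.95% higher. All 10 means were lower (median -0.44), where 62.6% of all tested genes had a lower mean. The count was 3 without OVA array 1, 4 without OVA array 3 and 0 without any other array, and Synpo2 was not called after quantile normalisation or centring. The water channel Aqp4 and the sodium channel subunit Scnn1b fell by 1.12 (SE 0.23) and 0.59 (SE 0.13), and Kcne3, a potassium channel subunit, was at least 1.30-fold higher, among 12 tested ion transport genes. That list had 1 higher and 4 lower calls without OVA array 1, 2 and 2 without OVA array 3 and none without any other array. Kdr, the VEGF receptor of endothelium, was the called member of 17 endothelial genes, where 4.91% of all tested genes were called lower. Kdr fell by 0.61 (SE 0.14), a call lost after centring (adjusted p = 0.0545). The list had 1 higher and 2 lower calls without OVA array 1, 4 lower without OVA array 3 and none without any other array. No member of the club cell, alveolar type 1, alveolar type 2 or fibroblast lists was called by limma. An unadjusted p under 0.05 was held by 5 of 9, 4 of 9, 5 of 11 and 4 of 9, against 29.7% of all tested genes. The medians were -0.20, -0.23, 0.10 and -0.25. Without OVA array 1 the alveolar type 2 list had 3 higher calls. Without OVA array 3 the club cell list had 1 higher call, and the alveolar type 1 and fibroblast lists had 1 lower call each. The club cell list also had 1 lower call without PBS array 2 and 1 higher call without PBS array 3. No other array left out gave a call in these lists. Clock, a core circadian transcription factor, was the called member of 13 clock genes (-0.63 ± 0.14, adjusted p = 0.0365). It was not called after centring (adjusted p = 0.0572). The list had 2 higher and 1 lower call without OVA array 1, 1 lower without OVA array 3 and none without any other array.

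**Figure D3:**
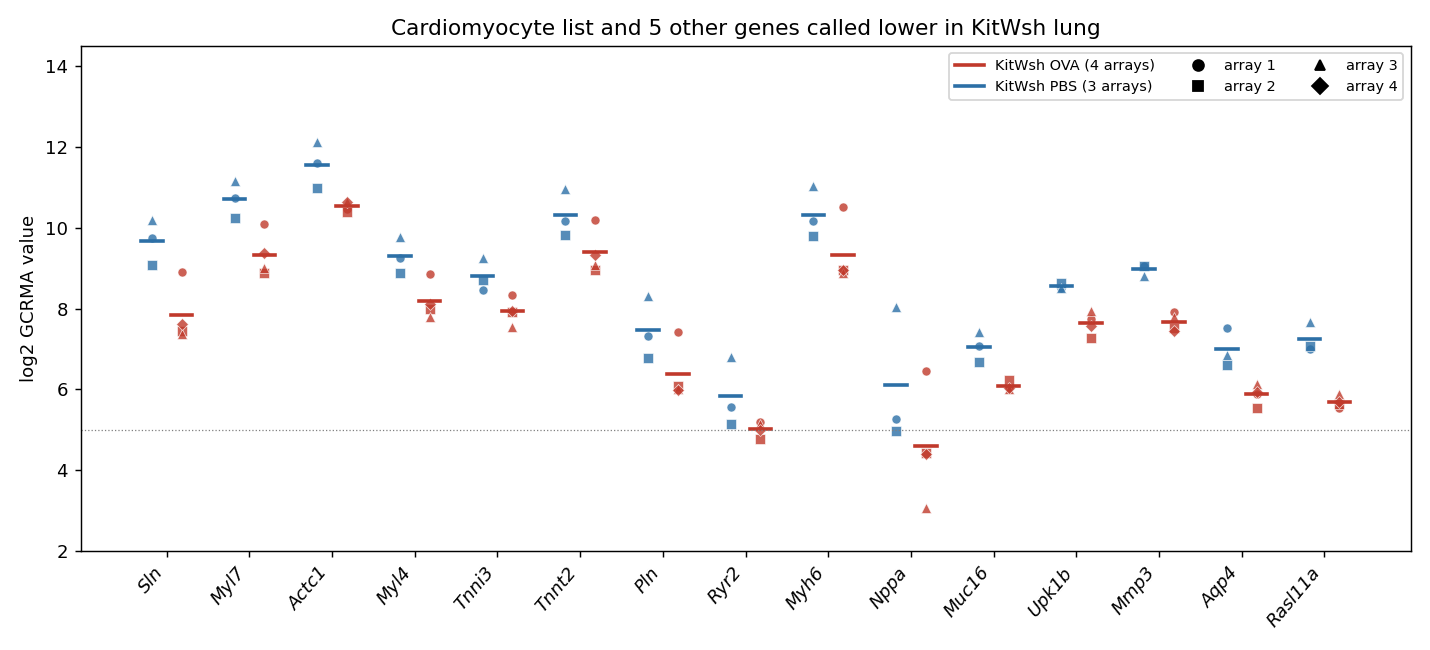
Log2 intensity in each KitWsh array of the cardiomyocyte list and of 5 other genes called lower, with points for arrays and bars for group means. The dotted line is the limit for testing, OVA array 1 (circle) is the highest OVA array for Sln, Myl7 and Myl4, and the OVA arrays of Rasl11a and Mmp3 lie together below all PBS arrays.

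Mast cell genes were checked as the label calls for. Cpa3, the mast cell carboxypeptidase, was at 3.05 to 3.40 in the 7 arrays, Tpsb2 at 2.36 to 2.50, and Tpsab1, Mcpt1, Mcpt2, Mcpt4, Mrgprb1 and Hpgds lay near the lowest value. The chymase Cma1 was at 4.40, 4.12, 2.84 and 2.82 in OVA and at 2.27, 3.69 and 2.29 in PBS, with overlapping groups and no array over log2 5. The IgE receptor chains Fcer1a and Ms4a2 averaged 4.23 and 3.89 in OVA and 3.30 and 3.33 in PBS, also untested, as was the vesicular amine transporter Slc18a2 at 2.39 and 2.61. Mrgprb2 has no probe set of its own here. Of the 18 listed genes 5 passed the limit: Kit, Hdc, Gata2, Rab27b and Mitf, which other lung cells express too. Limma called none of the 5, with 3 at an unadjusted p under 0.05. Without OVA array 1 the list had 1 higher and 2 lower calls, and without OVA array 3 it had 1 higher call. No other array left out gave a call. Kit was at 6.10, 6.51, 5.85 and 6.74 in OVA and at 5.54, 5.72 and 5.24 in PBS. Every OVA array was above every PBS array, but the difference missed the threshold (0.80 ± 0.22, adjusted p = 0.0579). A second Kit probe set averaged 3.02 in OVA and 2.98 in PBS, both under log2 5. Hdc, which makes histamine, differed by -0.27 ± 0.15, Gata2 by -0.74 ± 0.23, Rab27b by -0.47 ± 0.14 and Mitf by 0.22 ± 0.15. A second probe set differed by -0.06 for Hdc, by -0.24 for Gata2 and, under log2 5, by 0.43 for Mitf. Other probe sets of Rab27b differed by 0.26, 0.33 and 0.01.

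Fcer1g, the common gamma chain of the IgE receptor and of activating IgG receptors, which macrophages and other myeloid cells also make, was at 9.93, 10.70, 9.83 and 10.57 in OVA and at 9.22, 9.12 and 8.72 in PBS. It rose by 1.24 ± 0.24 (adjusted p = 0.0279) with no overlap. Ifngr1, the ligand-binding chain of the interferon-gamma receptor, was at 9.15, 9.76, 9.79 and 9.72 in OVA and at 9.78, 10.09 and 9.69 in PBS, with overlapping groups (-0.25 ± 0.19, adjusted p = 0.397).

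The same contrast in WT lungs uses 8 other arrays, fitted together with the 7 KitWsh arrays over 11220 tested genes. It called 958 genes higher (8.54%) and 1078 lower (9.61%), and 1786 and 1659 without WT OVA array 4. Of the 325 genes higher in KitWsh OVA lungs, 263 (80.9%) had a WT difference above 0, where 46.8% of all tested genes did, and 108 were called higher in WT. Of the 541 lower genes, 463 (85.6%) had a WT difference below 0, where 53.2% of all did, and 135 were called lower in WT. Without WT OVA array 4 these shares were 84.9% and 85.4%, where 47.8% and 52.2% of all tested genes lay above and below 0, and 203 and 228 of the genes were called in WT. All 13 tested mucus genes had a WT difference above 0. For Clca1 it was 8.09 in WT (8.96 without WT OVA array 4) and 6.55 in KitWsh, for Slc26a4 4.34 (5.09) and 2.59, for Fcgbp 3.16 (4.02) and 2.72, and for Muc5b 2.23 (2.87) and 2.31. The KitWsh response was below that of WT in 8 of the 13 genes, and in 12 without WT OVA array 4, where 60.3% of all tested genes were below in either fit. Limma called the difference between the responses for none of the 13, and none had an unadjusted p under 0.05. Without WT OVA array 4 again none was called, but 7 of the 13 had an unadjusted p under 0.05, where 23.7% of all tested genes did. The lowest p among the 13 was that of Agr2 (difference of -2.28, adjusted p = 0.0538). The lack of a call does not show equal responses: for Muc5ac the difference was 0.61 ± 1.03 (SE, adjusted p = 0.793) and turned to -0.42 without WT OVA array 4. The PBS means of Agr2 and Muc5ac were under log2 5 in KitWsh and in WT, so these fitted differences are no measured sizes.

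**Figure D4:**
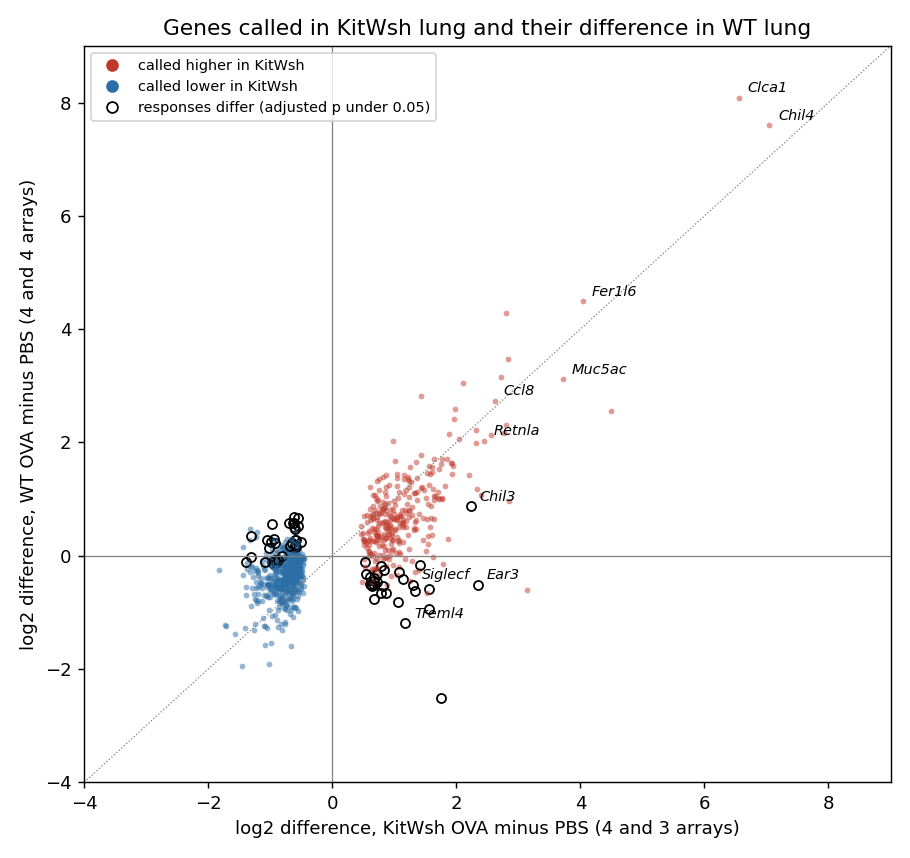
Log2 difference between OVA and PBS for the genes called in KitWsh lung, with the KitWsh difference on the x axis, the WT difference on the y axis and open circles where the responses differed. Of the genes called higher 80.9% lie above 0 in WT, and Chil4 and Clca1 are far out in both.

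The response differed between KitWsh and WT lungs in 184 of 11220 genes (1.64%), with the KitWsh difference above that of WT in 92 and below it in 92, and 2210 genes at an unadjusted p under 0.05. Without WT OVA array 4, the array that went against its label, 553 genes were called, and the 184 were among them with the same sign. The count was 543 without WT PBS array 4, 206 and 249 without KitWsh OVA arrays 1 and 3, and 23 to 101 without any other single array. Among the 9 named genes that had a called difference, Ear3 alone was called in all 15 fits that left out 1 array, and each of the others was called in 3 to 9 of them. Of the 866 genes called in KitWsh lungs, 29 higher and 33 lower genes had a called difference. PBS levels differed along with it: in 91 of the 92 genes where KitWsh responded more upward, the KitWsh PBS mean was below the WT PBS mean, where this held for 73.8% of the 4459 tested genes with a positive difference, and in 92 of the 92 others it was above, where this held for 85.8% of 6761. The contribution of the PBS arrays to these differences was not tested, and the PBS values are part of the difference itself.

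Arg1 was over log2 5 in 3 of the 4 WT OVA arrays and in no array of the other 3 groups. In WT OVA it was at 8.91, 8.58, 7.99 and 4.93 in arrays 1 to 4 and in WT PBS at 2.87 to 3.03, while no KitWsh array exceeded 4.23. The array labelled WT OVA 4 held the lowest WT OVA value. All KitWsh arrays and all WT PBS arrays were under log2 5, so the gene was at least 6.07-fold higher in WT OVA than in WT PBS or KitWsh OVA lungs, or at least 11.3-fold without WT OVA array 4. The response difference was called (adjusted p = 0.0402; 1.17e-05 without that array), and its fitted size rests on values under the limit and is no measured size.

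For Chil3, Ear3 and Siglecf the difference went the other way, and the PBS levels were apart. Chil3 and Siglecf were the 2 of 15 tested alveolar macrophage genes with a called difference, where 1.64% of all tested genes had one. Ear3 is not on that list. An unadjusted p under 0.05 was held by 3 of the 15, where 19.7% of all tested genes held one. Among members not called, Atp6v0d2, Pparg and Mrc1 differed by 0.60, 0.48 and 0.30 and Itgax by -0.27. Chil3 was at 13.13 to 13.35 in the 4 WT PBS arrays and at 11.42 to 11.87 in the 3 KitWsh PBS arrays, with OVA values of 13.61 to 14.62 and 13.59 to 14.09. The OVA ranges overlapped and the PBS ranges did not, and the response of KitWsh lungs was larger by 1.35 (adjusted p = 0.0297; 1.19 and 0.021 without WT OVA array 4). Ear3 was at 7.94 to 9.26 in WT PBS and at 5.95 to 6.74 in KitWsh PBS, with OVA values of 8.07 to 8.38 and 8.47 to 9.04. The ranges of both PBS and OVA were apart, and its response was larger by 2.86 (adjusted p = 0.00277; 2.86 and 0.00165 without WT OVA array 4). Siglecf was at 6.79 to 7.71 in WT PBS and at 5.04 to 5.94 in KitWsh PBS, with OVA values of 6.36 to 7.35 and 6.31 to 7.14 that overlapped. Its response was larger by 1.81 (adjusted p = 0.0312; 1.66 and 0.0251 without WT OVA array 4). The WT differences of Ear3 and Siglecf were below 0, at -0.52 and -0.51, and at -0.51 and -0.36 without WT OVA array 4.

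**Figure D5:**
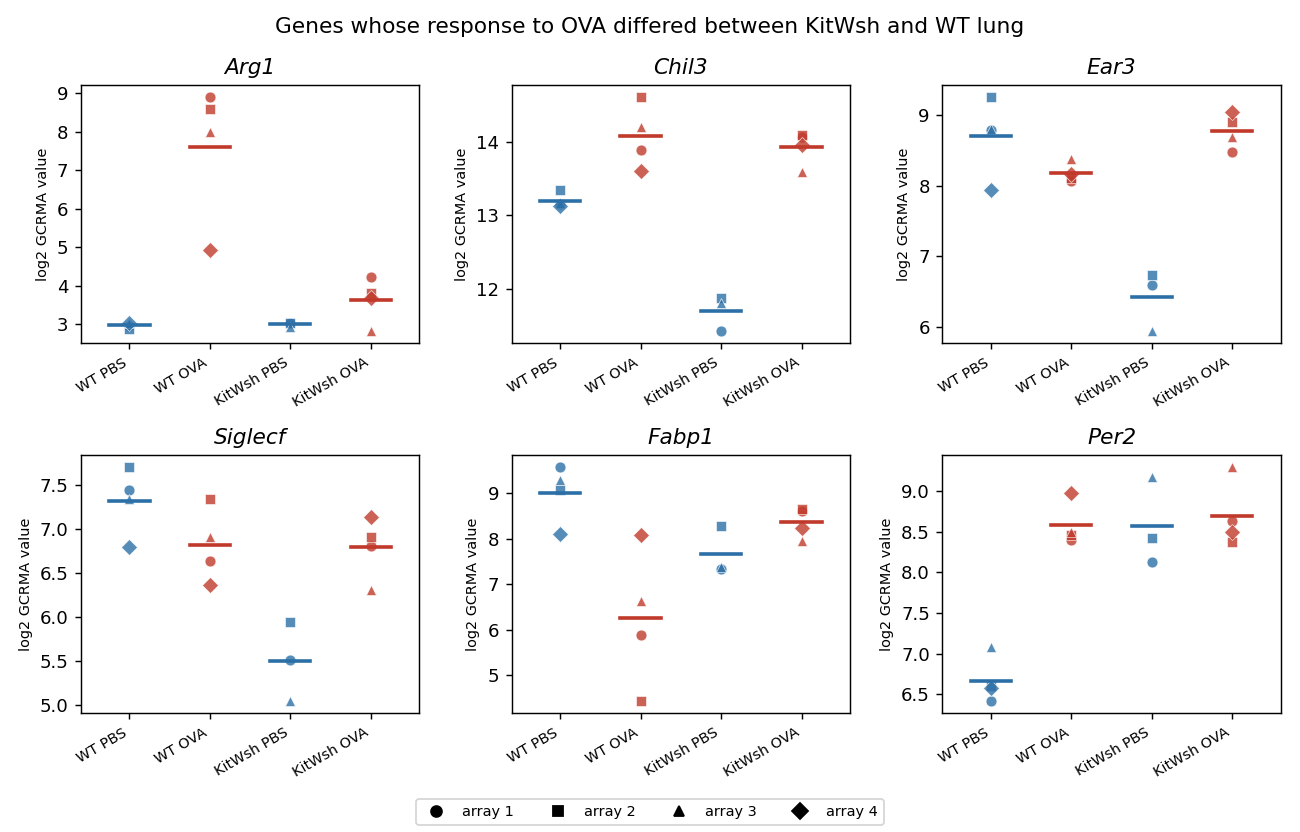
Log2 intensity in each array of genes whose OVA response differed between KitWsh and WT lungs, by group, with bars for group means and a diamond for array 4, which in WT OVA is the array that went against its label. Arg1 separates the OVA groups, Chil3 and Siglecf separate the PBS groups, and Ear3 separates both.

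For Des, Lox and Olfml2b the KitWsh difference was below 0 and below that of WT. Of 10 tested smooth muscle genes and 30 matrix genes, 1 each had a called difference, where 1.64% of all tested genes did. A difference at an unadjusted p under 0.05 was held by 7 of the 10 and 8 of the 30, where 19.7% of all tested genes held one. The median OVA difference of the smooth muscle list was -0.44 in KitWsh and 0.22 in WT. Des, the intermediate filament desmin of muscle, was at 8.62 to 9.00 in KitWsh OVA and 9.08 to 9.53 in KitWsh PBS, and at 9.08 to 9.77 in WT OVA and 8.12 to 9.02 in WT PBS, the WT OVA arrays being above the WT PBS arrays and the KitWsh OVA arrays below the KitWsh PBS arrays (difference of -1.38, adjusted p = 0.0297; -1.48 and 0.0138 without WT OVA array 4). For Lox, the lysyl oxidase that crosslinks collagen and elastin, the OVA difference was -1.05 in KitWsh and 0.40 in WT (0.46 without that array). These were apart by -1.44 (adjusted p = 0.0416; -1.51 and 0.0276 without that array), a call lost after centring (adjusted p = 0.0513). For Olfml2b the OVA difference was -1.38 in KitWsh and -0.11 in WT (-0.08 without that array), apart by -1.27 (adjusted p = 0.0409; -1.31 and 0.0296). Fabp1, a fatty acid-binding protein of liver and lung epithelium, was at 7.94 to 8.66 in KitWsh OVA and 7.34 to 8.28 in KitWsh PBS, while in WT it was at 4.43 to 8.09 in OVA and 8.12 to 9.58 in PBS (difference of 3.45, adjusted p = 0.0491; 4.06 and 0.00531 without WT OVA array 4). Per2, a core gene of the circadian clock that was chosen after its values were seen, was at 8.37 to 9.30 in KitWsh OVA, 8.13 to 9.17 in KitWsh PBS and 8.40 to 8.97 in WT OVA, and only the WT PBS arrays were lower, at 6.41 to 7.08 (difference of -1.79, adjusted p = 0.027; -1.66 and 0.0211 without WT OVA array 4). Of 13 tested clock genes 2 had a called difference, where 1.64% of all tested genes did. A difference at an unadjusted p under 0.05 was held by 7 of the 13, where 19.7% of all tested genes held one. The labels used here give no hour of sampling, and the part of the hour in these values was not tested.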

How the data were processed

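Lung RNA was measured on single-colour Affymetrix mouse genome arrays. The submitters' processing notes name GCRMA as the tool with which the authors turned scans into the deposited log2 values; no version of it is given in the sources used here. GCRMA subtracts a sequence-based background, normalises arrays by quantiles and summarises probe sets, so low values sit at a floor and a shift common to an array is removed. No further normalisation was applied.

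Of 45101 probe sets, 64 controls were left out; 34945 had 1 gene symbol in GEO's platform annotation, 932 several and 9211 none. Each of 18193 genes was represented by whichever of its probe sets averaged highest across the compared arrays. Genes over log2 5 in at least 3 arrays were tested (11026 in 7 arrays, 11220 in 15). A gene under log2 5 in every array of either group entered through the other group alone, which favoured its direction in the list counts. Limma 3.58.1 in R 4.3.3 fitted the group means (lmFit, eBayes) to the 7 KitWsh arrays, with 5 residual degrees of freedom, and, for the difference of the OVA response between KitWsh and WT, to 15 arrays, with 11. A call is a two-sided Benjamini-Hochberg adjusted p under 0.05 over all tested genes. Differences carry their standard error; precision is limited by how few arrays there were. Where the lower group had no array at log2 5 or more, the fold is given as "at least", the other group's mean set against 5. Array numbers follow accession order and pair nothing.

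The comparison, the 46 gene lists and the rule for named genes were chosen with earlier results of these data known. Named were the 15 highest and 15 lowest called genes, except immunoglobulin segments, predicted genes and genes named after clones, called members of each list with up to 6 others of smallest p, and Kit, Fcer1g, Ifngr1, the mast cell list and 7 mucus and type 2 genes. Alternatives were other sets of arrays, probe set rules, filters, normalisations and variance models. On simulated data for 11026 genes of the KitWsh comparison, with 200 changed, the procedure recovered 73% of 2-fold and 98% of 4-fold changes, with 5 false among 176 calls. The real data had 866 calls, a count that ran from 5 to 2163 when 1 array was left out, so the simulated rates need not hold for them. Promoter windows came from RefSeq (GRCm38.p6).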

Additional observations from a re-analysis of the deposited data

Results flagged for a closer look

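Within the 4 KitWsh OVA arrays, 1 array lay far from the other 3 for 11.6% of the 112 named genes that were tested, where Dixon's test flags about 1 in 20 groups by chance. OVA array 3 was below the others for Agr2 (5.228, the others at 6.841 to 7.037), Atp6v0d2 (7.654), Il33 (11.18), Mrc1 (10.32), Muc5ac (5.958) and Slc26a4 (4.605, the others at 8.104 to 8.333), and above them for Xist (13.0, the others at 12.55 to 12.6). OVA array 1 was below the others for Csf2ra (6.667) and Ifngr1 (9.147) and above them for Csrp3 (8.002), Hdc (10.45) and Sln (8.911, the others at 7.381 to 7.623). OVA array 2 was above the others for Jchain (14.34).

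The OVA response differed between KitWsh and WT lungs, by the adjusted p of the difference itself in limma, for 9 named genes. The KitWsh response lay below that of WT for Arg1 (-3.996, a fitted size that rests on values under the limit), Per2 (-1.787), Lox (-1.441), Des (-1.379) and Olfml2b (-1.274). It lay above that of WT for Fabp1 (3.445), Ear3 (2.863), Siglecf (1.808) and Chil3 (1.351). The adjusted p ran from 0.00277 for Ear3 to 0.0491 for Fabp1.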

How the results depend on the processing

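Calls in KitWsh lungs numbered 866 as reported. They numbered 63 in a fit to all 36 arrays (15 higher, 48 lower) but 760 when 1 array outside the comparison, KitWsh_MCigeR PBS array 2, was left out of that fit. They numbered 269 when probe sets were averaged per gene, 31 with no filter on low values, 3947 with array quality weights, and 5 to 2163 when 1 array was left out. The other settings gave 659 to 1033 calls. For the difference of the response between KitWsh and WT lungs, 184 genes were called; 21 in a fit to 35 arrays, 74 with no filter, 2250 with array weights, and 23 to 553 when 1 array was left out. Of the named genes none that was called changed sign. Among those not called, Rab27b turned to 0.036 with the mean of its probe sets, and Per2 to -0.173 with array weights, with values from -0.098 to 0.424 without 1 array. The cause of these changes was not tested. No paired analysis was possible because array numbers follow accession order. Genes near the lowest value, such as mast cell proteases, Arg1 and Il13, have no measurable order, and with 4 and 3 arrays a call often rests on 1 of them.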

Other observations

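Further gene groups were counted in KitWsh lungs, where 2.95% of all tested genes were called higher and 4.91% lower. Of 18 tested MHC class II and dendritic cell genes 3 rose (median 0.54), Irf4, Itgax by 1.16 ± 0.21 and Cd83, a maturation marker, by 0.99 ± 0.25. The means of 16 of the 18 were higher, where 37.4% of all tested genes had a higher mean. The count of called members was 0 without OVA array 2, OVA array 4 or any 1 PBS array, 4 without OVA array 1 and 10 without OVA array 3. Of 9 arginine uptake and breakdown genes limma called none, and their median of -0.07 was 0.00 after centring. That list had 1 higher call without OVA array 1, 1 higher and 1 lower without OVA array 3 and none without any other array. Of 30 matrix and remodelling genes the higher call was Chil1, a chitinase-like glycoprotein, by 0.72 ± 0.16, and the list median of -0.03 became 0.05 after centring. The lipid droplet gene Cidea, of brown fat, fell by 0.91 (SE 0.18) and Fabp3, the fatty acid-binding protein of heart, by 0.84 (SE 0.18). Chil1 and Fabp3 kept their call without OVA array 1 or OVA array 3 only, and Cidea also without PBS array 2.

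Reg3g, an antibacterial lectin of airway epithelium, was at 10.58, 10.19, 8.67 and 10.26 in OVA and at 6.72, 5.87 and 9.52 in PBS. PBS array 3 lay above OVA array 3, and the difference of 2.56 ± 0.78 missed the threshold (adjusted p = 0.0713). PBS array 3 was also the highest PBS array for Clca1, Muc5b, Tff2, Agr2 and Bpifb1.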
